A study of Mus musculus with 8 samples.

Results

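The proteasome is the barrel-shaped protease that degrades proteins marked with ubiquitin. Its core particle is a stack of rings, with outer rings of Psma subunits that gate entry and inner rings of Psmb subunits that include the catalytic ones. A regulatory particle caps the core: a ring of Psmc ATPases unfolds the substrate, and the non-ATPase Psmd subunits form a scaffold, bind ubiquitin and, in the part called the lid, remove it. The egg degrades cyclin B and securin through the proteasome when fertilization releases it from metaphase arrest, and the embryo then clears maternal proteins the same way. Polysomal mRNA of the genes for these subunits was compared between mouse eggs and one-cell embryos.

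The genes were chosen by symbol: every probe set whose single annotated gene is named Psma to Psmg followed by a number, which gave 103 of the 45101 probe sets on the array and 49 of its 18193 genes with a probe set of their own. Of these, 34 probe sets (19 genes) belong to the core, 12 (6 genes) to the ATPases, 32 (14 genes) to the non-ATPase subunits and 22 (8 genes) to the activators, the inhibitor and the assembly chaperones (Psme, Psmf and Psmg). The other 3 probe sets match by their letters alone: they read Psmc3ip and Psme3ip1, which are no proteasome subunits and were kept apart. The probe set that names Psme2 together with Psme2b was outside the rule.

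The 4 MII arrays held polysomal RNA (mRNA bound to clusters of ribosomes) of mouse metaphase II oocytes, the stage at which the ovulated egg waits for fertilization. The 4 one-cell arrays held polysomal RNA of one-cell embryos treated with alpha-amanitin, an inhibitor of RNA polymerase II. Strain and age are not given in the labels. Each array was an independent batch of 160 to 500 eggs or embryos, with RNA amplified by 2 rounds of in vitro transcription, and the question is which maternal mRNAs are on polysomes before and after fertilization. Stage and alpha-amanitin changed together and cannot be told apart, and signals are shares of each array's total, so less of an mRNA and less of it on ribosomes cannot be told apart either. With 4 arrays in each group, precision is limited.

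The arrays were uneven. The median signal was 72 on one-cell array 1 and between 27 and 38 on the remaining 7, and its 18 hybridization controls averaged 14879 (geometric mean), where the remaining arrays had 857 to 3718. The exact permutation test between groups was two-sided and gave p = 0.143 for these controls (0.286 adjusted over 5 array measures). The signal of an 18S rRNA probe set was 11.3-fold higher in embryos (exact permutation p = 0.0286, the smallest possible, and 0.143 adjusted). The 3′ to 5′ signal ratio of Actb, a sign of RNA integrity, was 65.9 on MII array 2 and 4.49 to 11.6 on the remaining arrays. The same ratio of Gapdh did not set that array apart, with 7.24 on it and 3.57 to 9.41 on the remaining arrays. With the hybridization controls as a covariate, 23 proteasome probe sets rose and 4 fell, where without it 23 rose and 7 fell. Over all 23336 probe sets tested, the covariate took rises from 4511 to 3929 and falls from 2982 to 2131. The part of the 18S and Actb measures in the results below was not tested, and values without MII array 2 are given where it stands apart. Of 9 oocyte markers with a probe set, all 9 were bright enough to test, and 3 rose and 2 fell. Those that rose were Zp2 (0.82 ± 0.29), Bmp15 (0.87 ± 0.32) and Nlrp5 (1.09 ± 0.30). Those that fell were Zar1 and Gdf9, the latter with a change of -2.17 ± 0.43 (limma). Of the marker lists for other cells, 4 of 9 genes were bright enough for cumulus and granulosa cells, 3 of 7 for sperm and 2 of 4 for blood and immune cells. Their summed signals were 407 to 515 on the MII arrays and 329.5 to 982 on the one-cell arrays for cumulus and granulosa cells, 153 to 244 and 169.8 to 454 for sperm, and 650.1 to 1144 and 1110.2 to 1986 for blood and immune cells, the last mostly from H2-Aa. Of these markers the sperm gene Prm2 rose by 1.96 ± 0.39, the sperm gene Akap4 had a change of -1.77 ± 0.41 and also passed, and H2-Aa rose by 0.98 ± 0.30 (limma), while 0 of the 4 cumulus and granulosa genes passed. Their part in the results was not tested. Ptprc and Cd3e of the blood list and Amh of the granulosa list were too dim to test.

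Signals are linear intensities in arbitrary units, listed in the order of arrays 1 to 4 in each group. A probe set was tested if it exceeded the median of its own array on at least 4 of the 8 arrays. A change is the one-cell mean minus the MII mean of log2(signal + 10) with its standard error (limma, 4 arrays against 4), which understates the change of dim mRNAs, and "rose" and "fell" mean a Benjamini-Hochberg adjusted p under 0.05 over all 23336 probe sets tested. Signals of different probe sets are not compared with each other.

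Of the 100 proteasome probe sets, 64 passed the brightness filter, covering 40 of 47 genes. Among these 64, 23 rose (35.9%, against 19.3% of all probe sets tested), 7 fell (10.9%, against 12.8%) and 34 did not pass. The split moved with the scaling, to 15 higher and 7 lower after quantile normalization and 14 and 6 after centring each array on its median, as did that of all probe sets called, of which 60.2% were higher as deposited, 48.7% with the first method and 50.8% with the second. The median change was 0.61 for the proteasome probe sets against 0.17 for all probe sets tested, a difference of 0.44 (0.31 under quantile normalization, 0.44 under centring and 0.09 over all 100 probe sets with no brightness filter). In either direction the share called was 46.9% against 32.1%, but with the filter set at the 75th percentile of each array it was 51.0% of 49 against 53% of all. The share called in either direction was thus near that of all bright probe sets. Within those 49, 36.7% rose and 14.3% fell, against 27.8% and 25.3% of all. The groups did not overlap for 29 of the 64 (45.3%, against 32.6% of all).

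The counts of falls moved with the arrays left out. They were 4 without MII array 1, 2 or 3 and 10 without one-cell array 2, against 7 with all arrays. Falls over all probe sets tested also dropped, from 2982 to 2271, 2551 and 2234 without MII array 1, 2 and 3. For the activators, leaving out MII array 1, 2 or 3 or one-cell array 4 took falls from 3 to 1. The rises of the non-ATPase subunits went from 8 to 5 without one-cell array 4, where those over all probe sets went from 4511 to 3903. Counted per gene by its brightest probe set, 15 genes rose, 3 fell and 22 did not pass, where 20.1% of all 12359 genes rose and 14.7% fell. Counted by the mean of its tested probe sets, in a separate fit with its own adjusted p-values, 18 genes rose and 3 fell. The share of all genes called in that fit is not given here. Of the 15 genes with several tested probe sets, 10 had the same call for each of them, 5 had mixed calls and 0 had calls in both directions. In the plot of all tested probe sets, the ATPase panel has no fall, and both calls occur among the core subunits and the activators.

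**Figure D1:**
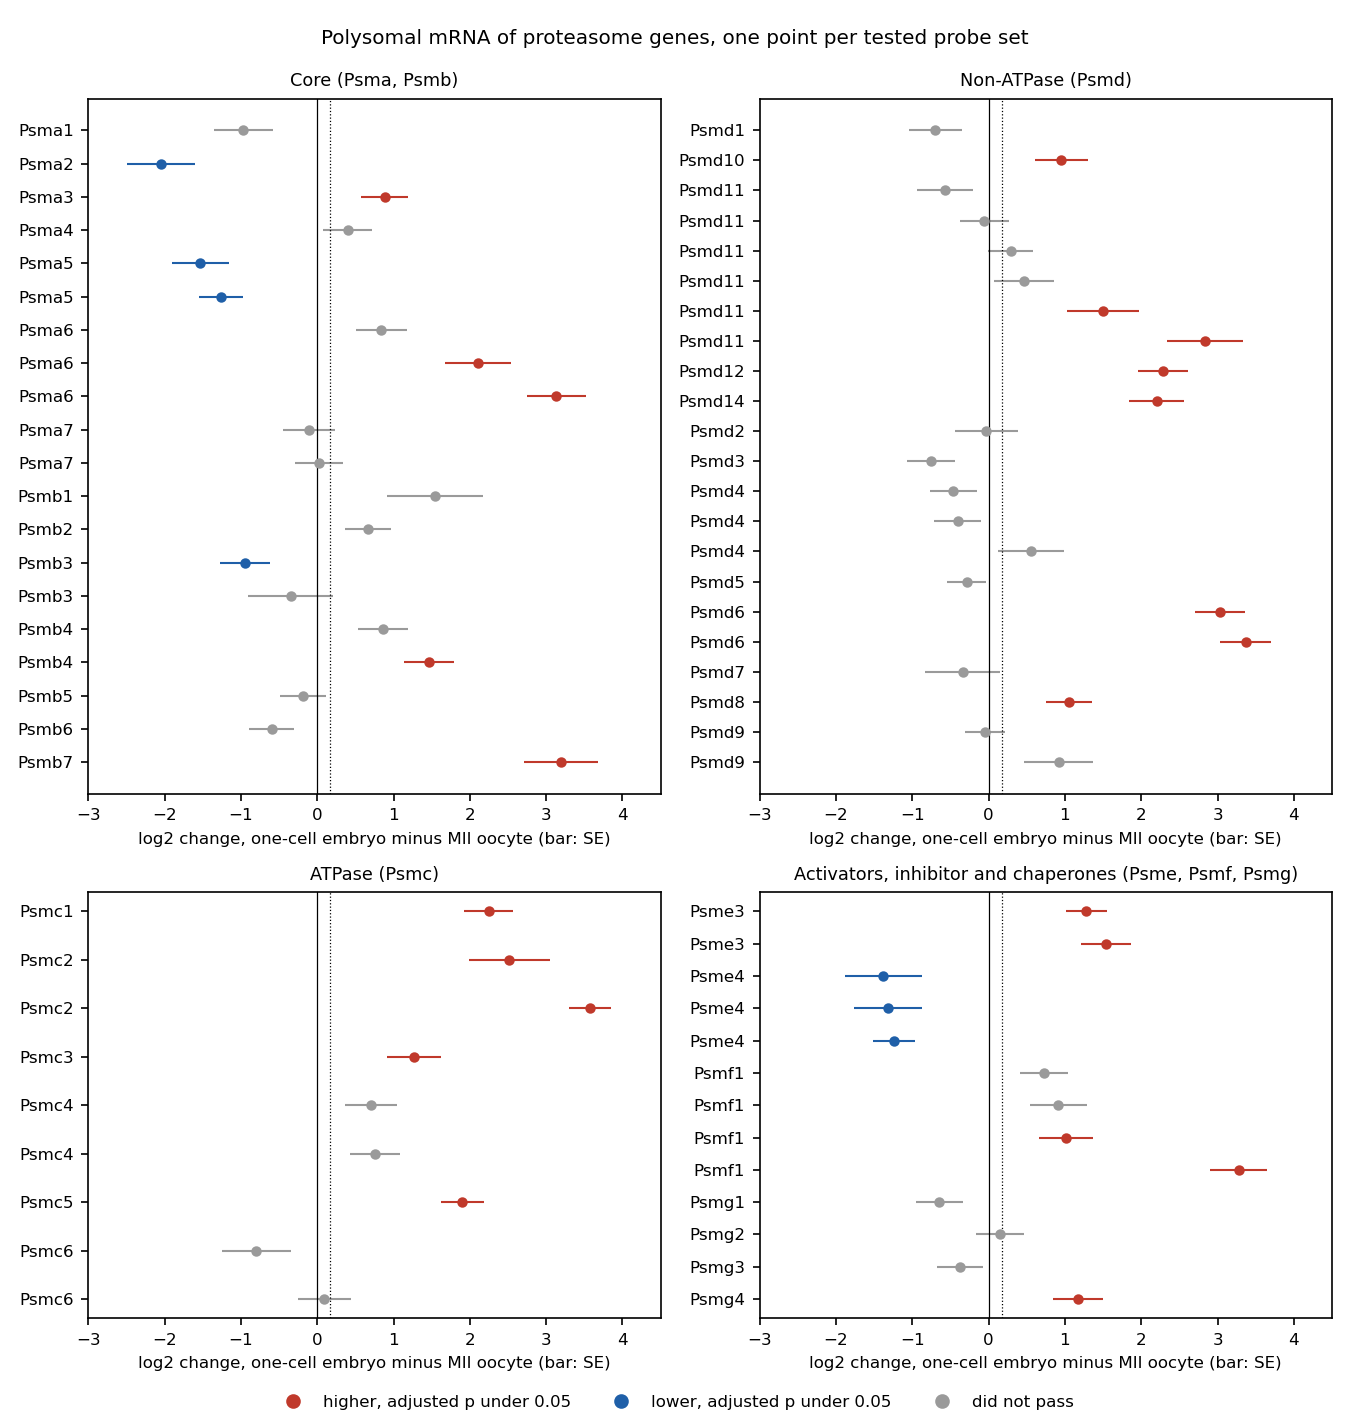
Log2 change (one-cell embryo minus MII oocyte, x axis) of each of the 64 proteasome probe sets tested, named by gene and grouped into core, ATPase, non-ATPase, and activators with the inhibitor and chaperones. Points are fitted changes and bars their SE (4 arrays against 4). Red points rose, blue points fell and grey points did not pass, and the dotted line is the median of all tested probe sets, 0.17.

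In the ATPase ring, most genes rose. Of its 6 genes, all measured, 4 did so (Psmc1, Psmc2, Psmc3 and Psmc5), where 20.1% of all genes rose. Over the 9 tested probe sets 5 rose (55.6%, against 19.3% of all probe sets tested) and 0 fell (against 12.8%), with a median change of 1.27. After quantile normalization or centring, 4 rose and 1 fell, the latter being a dim probe set of Psmc6 that passed the filter through its oocyte signals alone. The largest rise of any single probe set was on the brighter of 2 tested for Psmc2, the subunit also called Rpt1. It read 131, 111, 79 and 115 on the MII arrays and 1293, 1558, 1771 and 1041 on the one-cell arrays. The lowest embryo value was thus far above the highest oocyte value, a 13-fold difference of means and a change of 3.57 ± 0.28 (adjusted p = 2.54e-07). A further probe set of Psmc2 read 124, 8.8, 95.2 and 87.9 in oocytes and 212, 689, 575 and 297 in embryos, a change of 2.52 ± 0.53, with MII array 2 far below the other MII arrays. It was 1.88 without that array.

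Psmc1 (Rpt2), which helps to open the gate of the core, read 50.8, 54.6, 39.8 and 95.4 in oocytes and 251, 265, 426 and 322 in embryos. The groups were well apart, with a change of 2.25 ± 0.32 (adjusted p = 5.45e-05). Psmc5 (Rpt6) read 119, 103, 71.2 and 86.7 in oocytes and 335, 376, 466 and 339.9 in embryos, a change of 1.90 ± 0.28. Psmc3 (Rpt5) rose less, by 1.27 ± 0.36 from 67.4, 31.9, 49.5 and 37.2 to 174, 162, 99.1 and 78.3. The nearest values of the 2 groups were close, 67.4 and 78.3, and its call was lost after quantile normalization (0.85) and centring (0.95), and with the hybridization controls as a covariate (1.09).

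The other ATPases did not pass. Both probe sets of Psmc4 (Rpt3) had positive changes, 0.71 ± 0.34 and 0.76 ± 0.33, and overlapping groups. The first reached the threshold without MII array 2 (1.07), which read 418, and the second without one-cell array 1 (0.96). As the mean of its probe sets Psmc4 rose by 0.73 ± 0.26 (limma, adjusted p = 0.0402). Psmc6 (Rpt4) did not pass either. Its brighter probe set read 474, 311, 286 and 348 in oocytes and 197, 594, 539 and 302 in embryos, a change of 0.09 ± 0.34. One-cell array 1 was the lowest of the 8 and arrays 2 and 3 the highest. This small change was negative after quantile normalization (-0.23) and centring (-0.22). A second Psmc6 probe set (33 to 64.6 in oocytes, 11.2 to 44.3 in embryos) changed by -0.80 ± 0.45 and was below the array median in each embryo batch. It therefore passed the brightness filter only through the oocyte arrays, where it is high, and its values (-1.13 after quantile normalization and -1.12 after centring) are given as a description.

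The median deviation from the MII mean, taken on each array over the tested probe sets of a class, shows how even this was across embryo batches. For the ATPases it lay between 0.85 and 1.65 on the 4 one-cell arrays and between -0.27 and 0.35 on the MII arrays. For the core it was 0.06 to 0.63 and for the non-ATPase subunits 0.27 to 0.65 on the one-cell arrays. The activators and chaperones had 0.27 to 0.87 there, with the highest on one-cell array 3. All tested probe sets together gave 0.62 on one-cell array 1 and -0.08 to 0.21 on arrays 2 to 4. On array 1 the non-ATPase value, 0.65, was close to that of all probe sets. These medians are a description and carry no test.

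**Figure D2:**
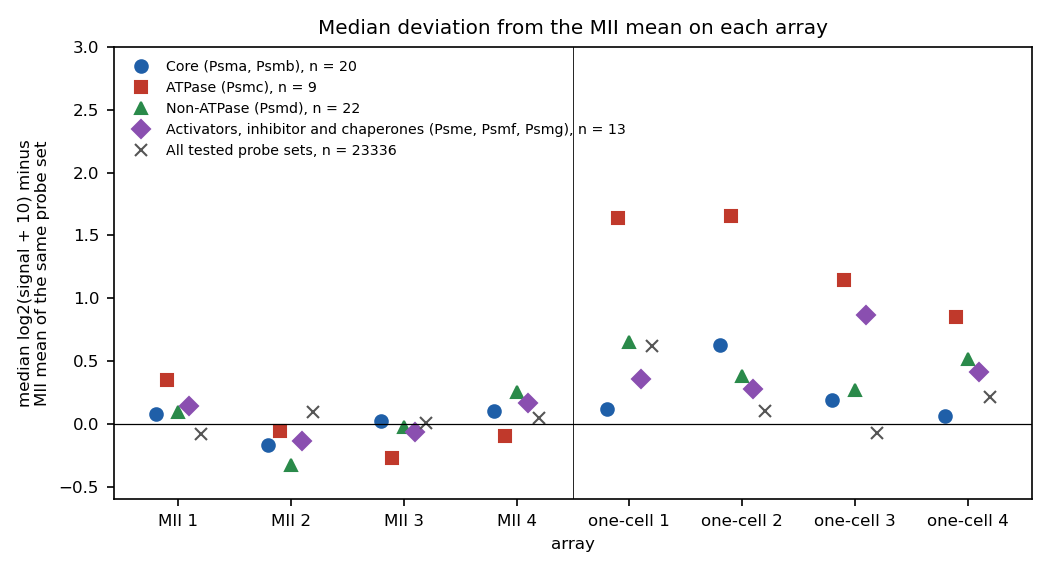
Median, over the tested probe sets of each class, of log2(signal + 10) minus the MII mean of the same probe set (y axis) on each of the 8 arrays (x axis). Symbols mark the classes and crosses all 23336 probe sets tested. The ATPase squares lie between 0.85 and 1.65 on the one-cell arrays, above the other classes on each of them.

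Of the 22 tested probe sets of the non-ATPase subunits, 8 rose (36.4%, against 19.3% of all tested) and 0 fell (against 12.8%). Their median change was 0.38. They were grouped by role into lid and base after the values were seen. The lid also held several large rises. Of its 8 Psmd genes, 7 were measured, and by their brightest probe set 4 rose and 3 did not pass (20.1% of all genes rose). Of 13 tested probe sets, 6 of them for Psmd11, 7 rose and 0 fell (median change 1.05). Of all tested probe sets 19.3% rose and 12.8% fell. Sem1, a lid subunit outside the symbol rule and not in these counts, fell (-1.62 ± 0.33). The large scaffold subunits and the ubiquitin receptor of the base (Psmd1, Psmd2 and Psmd4) gave 0 calls among 5 tested probe sets, with a median change of -0.41. No test of the difference between these groups was made.

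Psmd6 (Rpn7), a structural lid subunit, rose on both of its probe sets. The brighter read 100.1, 220.5, 99.1 and 192 in oocytes and 2395, 1278, 1185 and 1714 in embryos, a 10.7-fold difference of means and a change of 3.37 ± 0.33 (adjusted p = 1.81e-06). The dimmer read 83.2, 44.3, 62.8 and 145 and 594, 618, 876 and 758, a change of 3.04 ± 0.33. On both, each embryo batch lay several-fold above each oocyte batch.

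Psmd12 (Rpn5), another structural lid subunit, read 99.9, 78.7, 126 and 125 in oocytes and 300.2, 553, 909 and 624 in embryos. Embryo array 1 was the lowest of its group and still above all oocyte arrays, with a change of 2.29 ± 0.33 (adjusted p = 6.8e-05). Psmd14 (Rpn11), the metalloprotease that cuts ubiquitin chains from the substrate, rose by 2.20 ± 0.36 (adjusted p = 0.000177) from 62.2, 26.8, 22.9 and 42.9 to 158, 219, 311 and 158. It exceeded the array median on only 2 of the 4 MII arrays, so the size of its fold is poorly set. Psmd8 (Rpn12) went from 122, 84.9, 126 and 125 to 189, 268, 188 and 376, a change of 1.05 ± 0.31 (0.93 without MII array 2, the lowest) that lost its call without one-cell array 4 (0.85), after quantile normalization (0.56) and after centring (0.74).

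Psmd11 (Rpn6), which clamps the lid to the core, gave readings that depended on the probe set. Of its 6 tested probe sets, 2 rose and 4 did not pass. The brightest read 2907, 2749.8, 3666 and 5551 in oocytes and 3359, 3512, 3740.2 and 3145 in embryos, a change of -0.06 ± 0.32 that was 0.47 after quantile normalization and 0.15 without MII array 4. A dim one rose by 2.84 ± 0.50, from 8.3, 13.3, 28 and 34.8 to 611, 83.9, 158 and 182, and exceeded the array median on only 1 MII array. The other that rose did so by 1.50 ± 0.47 with overlapping groups, and it lost its call without MII array 1 (1.27) or 3 (1.20), without one-cell array 3 (1.31) or 4 (1.19), and after quantile normalization (1.29) and centring (1.19). Which transcripts each probe set reads was not analysed here, so the level of Psmd11 mRNA is not settled. The mean of its 6 tested probe sets rose by 0.74 ± 0.24 (limma, adjusted p = 0.0259).

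The remaining Psmd genes of the lid did not pass or were not tested. Psmd3 (Rpn3) read 3369, 3158, 2151 and 2291 in oocytes and 1291, 2411, 1167 and 1765 in embryos, a change of -0.75 ± 0.32 that passed as lower without one-cell array 2 (-0.95). Psmd7 (Rpn8), the partner of Psmd14, changed by -0.34 ± 0.49. That value rests on one-cell array 1, which read 12.1 while arrays 2 to 4 read 82.9 to 133, and without it the change was 0.27. None of the 4 probe sets of Psmd13 (Rpn9) was bright enough to test.

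In the base, Psmd1 (Rpn2) read 2014, 2027, 2384 and 3620.2 in oocytes and 816, 1453, 2312 and 1834 in embryos, a change of -0.70 ± 0.35 with overlapping groups (-0.41 without one-cell array 1). Psmd2 (Rpn1), the docking site for ubiquitin shuttles, changed by -0.03 ± 0.42 with embryo arrays spread from 378 to 1885, and by 0.37 without one-cell array 1. The ubiquitin receptor Psmd4 (Rpn10) gave -0.46 ± 0.30, -0.41 ± 0.30 and, on a dim probe set, 0.56 ± 0.43. Among the chaperones that assemble the base, Psmd5 stayed within a narrow band, 1008, 1203, 1156 and 1036 in oocytes and 972, 859, 888 and 879 in embryos, a change of -0.29 ± 0.26 that did not pass although the groups do not overlap. Psmd9 changed by -0.04 ± 0.26 on its brighter probe set and 0.92 ± 0.45 on the dimmer (0.53 without MII array 1). Psmd10, also called gankyrin, rose by 0.96 ± 0.35 (adjusted p = 0.0454), a call lost without any 1 of MII arrays 2 to 4 or one-cell arrays 2 to 4 (changes from 0.70 to 1.06), after quantile normalization (0.42) and after centring (0.64).

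The core particle held both directions. Of its 14 measured genes, 4 rose and 2 fell by their brightest probe set, where 20.1% and 14.7% of all genes did. Over 20 probe sets 5 rose (25%, against 19.3% of all tested), 4 fell (20%, against 12.8%) and 11 did not pass. The median change of the 20 was 0.21 against 0.17 for all. After quantile normalization or centring, 3 rose and 4 fell. In the outer ring of 7 Psma subunits, 3 probe sets rose and 3 fell. Psma2 had the largest fall of all proteasome genes, from 10954, 9884, 10339.8 and 11321 in oocytes to 946, 4909, 3893 and 2369 in embryos. All embryo batches lay below all oocyte batches and one-cell array 1 was the lowest, a 3.51-fold difference of means and a change of -2.05 ± 0.44 (adjusted p = 0.00196), or -1.57 without that array.

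Psma5 fell on both tested probe sets. The brighter read 2717, 2142, 2799.7 and 2085 in oocytes and 348, 1419, 1072 and 885 in embryos, a change of -1.53 ± 0.37 (-1.12 without one-cell array 1, the lowest). It did not pass with the hybridization controls as a covariate (-0.84, limma adjusted p = 0.0838). The dimmer read 1292, 921, 1127 and 736 and 323, 523, 444 and 376, a change of -1.26 ± 0.28. The groups did not overlap on either.

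Psma6 moved the other way. Its brightest probe set read 287, 370, 178 and 323 in oocytes and 6083, 2149, 1804 and 1749 in embryos, a 10.2-fold difference of means and a change of 3.13 ± 0.38 (adjusted p = 1.35e-05). One-cell array 1 was far above the other embryo arrays, and the change without it was 2.71. A second probe set, 78.7, 46.8, 66.4 and 80.7 in oocytes and 129, 574, 647 and 219 in embryos, rose by 2.11 ± 0.43, here with one-cell array 1 the lowest of its group. The third did not pass (0.84 ± 0.33), although its groups do not overlap, and it passed without one-cell array 3 (0.98).

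Among the other outer-ring subunits, Psma3 rose by 0.89 ± 0.31 (adjusted p = 0.0372) from 255, 189, 224 and 238 to 355, 598, 591 and 258. Its highest oocyte and lowest embryo values nearly touch, and the call was lost without any 1 MII array, without one-cell array 2 or 3 (changes from 0.72 to 0.94), after quantile normalization (0.60) and after centring (0.57). Psma1 changed by -0.97 ± 0.39 and did not pass, with embryo arrays 1 and 4 (176 and 278) far below arrays 2 and 3 (656 and 638), and it passed as lower without one-cell array 2 (-1.23) or 3 (-1.21). Its change was smaller without array 1 (-0.61), without arrays 1 and 4 (-0.21) and with the covariate (-0.17). Psma4 (0.40 ± 0.32, or 0.12 without MII array 2) and Psma7 (0.02 ± 0.31 and -0.11 ± 0.34) did not pass. Both Psma7 probe sets changed sign across settings, among them centring for the first (-0.30).

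In the inner rings, the 3 catalytic subunits of the standard proteasome differed in their calls. Psmb7, which carries the trypsin-like activity, rose by 3.20 ± 0.48 (adjusted p = 9.8e-05), from 55.4, 5.7, 48.9 and 39.7 in oocytes to 462, 331, 760.4 and 163 in embryos. Its groups are far apart, but MII array 2 was far below the other oocyte arrays and the oocyte signals are low, so the size of the fold is poorly set. Without that array the change was 2.73. Psmb5, the chymotrypsin-like subunit and the main target of bortezomib, read 91.8, 87.5, 79 and 93.2 and 75.9, 86, 78 and 64.6, a change of -0.19 ± 0.30 with overlapping groups. Psmb6, the caspase-like subunit, read 1428, 1069, 954 and 864 and 529, 993, 619 and 724, a change of -0.60 ± 0.29 that did not pass either. Whether the changes of the catalytic subunits differ from each other was not tested.

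The non-catalytic inner subunits gave 1 rise and 1 fall in 6 probe sets. Psmb4 rose on 1 probe set, 1.46 ± 0.32 (adjusted p = 0.00235), from 90, 86.4, 104 and 128 to 203, 442, 411 and 206. Its embryo arrays fall into a lower pair, 1 and 4, and a higher pair, 2 and 3, and the call was lost after quantile normalization (0.96) and centring (1.15). The other Psmb4 probe set (0.86 ± 0.33) did not pass with all arrays and passed without one-cell array 1 (1.13).

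Psmb3 fell on its dimmer probe set, -0.95 ± 0.33 (adjusted p = 0.0342), from 341, 604, 308 and 269 to 134, 240.2, 136 and 249.5. That call did not survive leaving out MII array 1, 2 or 3, or embryo array 1 or 3 (changes from -1.03 to -0.71). The brighter probe set gave -0.35 ± 0.55 with widely scattered arrays, from 1055 to 5045 in oocytes and 579 to 3334 in embryos. It passed as lower with the hybridization controls as a covariate (-1.49) and without one-cell arrays 1 and 4 (-1.41), and it was positive without MII array 2 or one-cell array 3. Psmb2 (0.67 ± 0.30) did not pass with all arrays and passed without one-cell array 1 (0.84). Psmb1 (1.54 ± 0.63) did not pass either, with oocyte arrays 1 and 3 (5.6 and 8.9) below the array median, and it passed when MII array 2 (1.96), MII array 4 (1.91) or embryo array 3 (1.89) was left out. Without one-cell array 1, the highest at 329, its change was 1.01.

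The subunits that replace standard ones in specialised tissues were too dim to test. These are the immunoproteasome subunits Psmb8, Psmb9 and Psmb10, the thymus subunit Psmb11 and the spermatocyte subunit Psma8. Their 6 probe sets read 0.7 to 115.5 over all arrays, and the highest value, of Psmb9, came from one-cell array 1, whose median is 72. The interferon-inducible activator subunit Psme1 was also too dim (2.1 to 99.4, the highest on one-cell array 1). Signals this low do not show whether the mRNA is present.

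**Figure D3:**
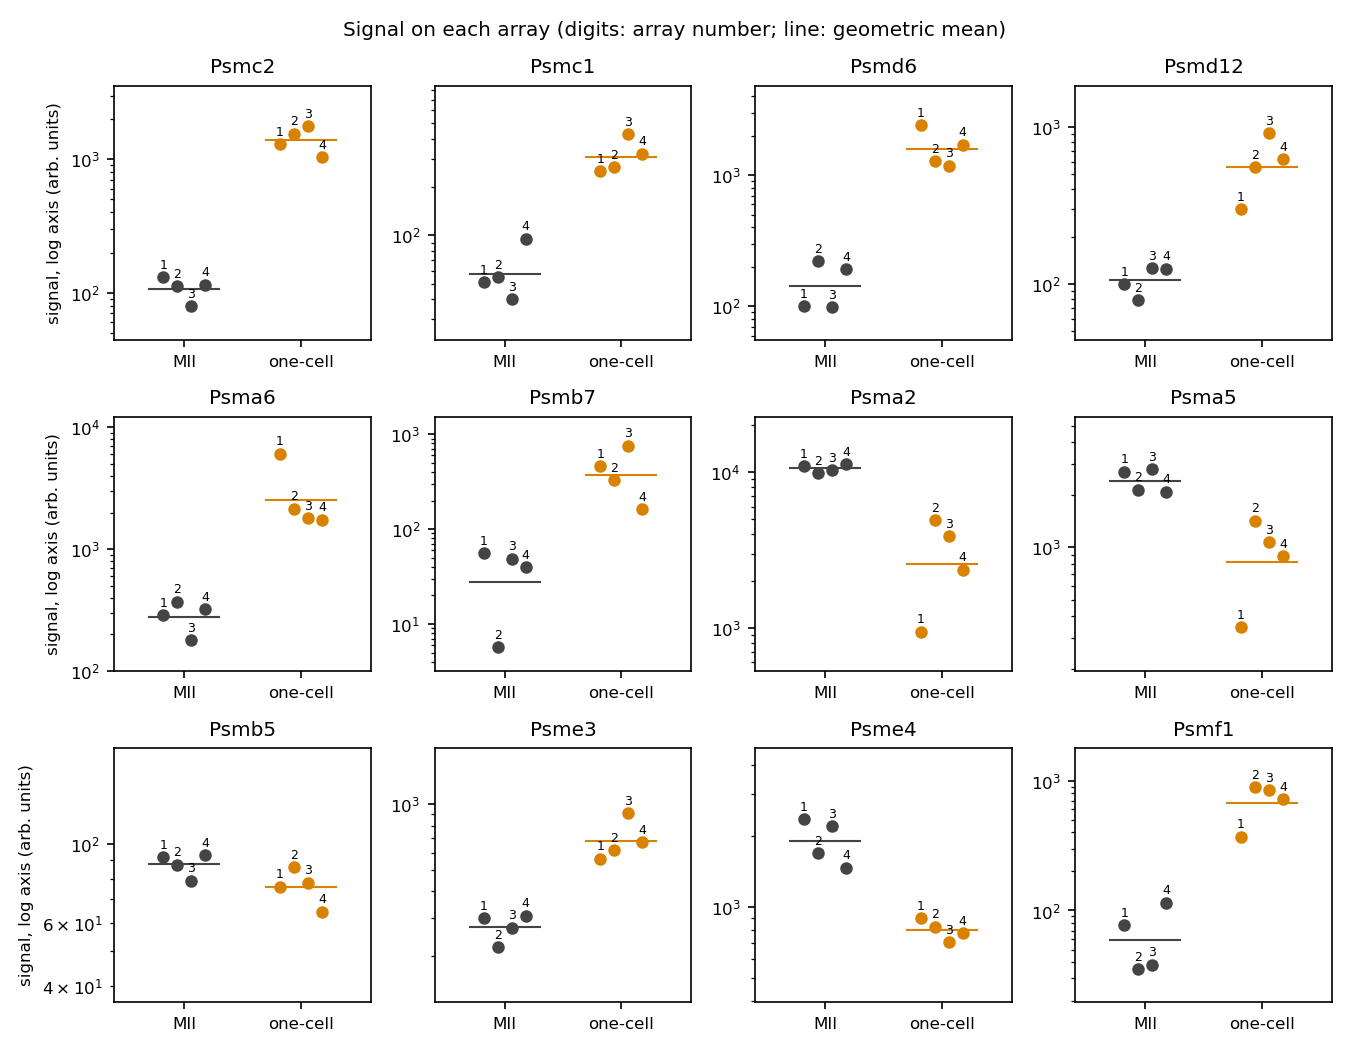
Signal (arbitrary units, log y axis with its own range in each panel) on the 4 MII and 4 one-cell arrays for 12 probe sets, with the array number above each point and the geometric mean as a line. Psmc2, Psmc1, Psmd6, Psmd12, Psma6, Psmb7, Psme3 and Psmf1 lie higher on all one-cell arrays, Psma2, Psma5 and Psme4 lower, and Psmb5 overlaps.

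Of the 13 tested probe sets of the activators, the inhibitor and the chaperones, 5 rose (38.5%, against 19.3% of all tested). Of the same 13, 3 fell (23.1%, against 12.8%). The alternative caps of the core moved in opposite directions. Psme3, the nuclear activator PA28γ that opens the core without ATP or ubiquitin, rose on both tested probe sets. The brighter read 299.7, 221, 272 and 308 in oocytes and 562, 614, 908 and 672 in embryos, a 2.5-fold difference of means and a change of 1.28 ± 0.27 (adjusted p = 0.0016). The dimmer went from 78.8, 56.6, 39.5 and 87.8 to 179, 196, 293 and 165, a change of 1.54 ± 0.32. All embryo arrays lay above all oocyte arrays on both. After centring, the call of the brighter was lost (0.96) and that of the dimmer was not (1.23).

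Psme4, the activator PA200 known for the degradation of acetylated histones, fell on its 3 tested probe sets. The first read 2353, 1689, 2203 and 1465 in oocytes and 896, 825, 709 and 773 in embryos, a 2.41-fold difference of means and a change of -1.24 ± 0.28 (adjusted p = 0.00252). The brightest read 6056, 6798, 4819.5 and 4859 and 786, 4621, 2823 and 2385, a change of -1.32 ± 0.44, and the remaining one 5077, 3190.1, 3319 and 2589.5 and 332, 2934, 1965 and 1539, a change of -1.38 ± 0.51 with overlapping groups. In these last 2, one-cell array 1 lay far below the other embryo arrays, and without it the changes were -0.82 and -0.73, the latter no longer a call (adjusted p = 0.0723). Leaving out MII array 1, 2 or 3, or embryo array 4, also ended both calls (changes from -1.39 to -1.22 for the brightest and -1.45 to -1.19 for the other), and that of the remaining one without MII array 4 (-1.51). Neither passed after quantile normalization (-0.86 and -1.13) or centring (-1.64 and -1.70), and the hybridization controls as a covariate moved both the most (-0.57 and -0.30). The first probe set kept its call in all of these settings, with changes from -1.55 to -0.96.

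Psmf1, the inhibitor PI31, had positive changes on its 4 probe sets, of which 2 rose. The largest went from 77.4, 35.3, 38.4 and 115 in oocytes to 370, 890.5, 841 and 716 in embryos, a 10.6-fold difference of means and a change of 3.28 ± 0.38 (adjusted p = 7.34e-06), with no overlap. A second rose by 1.01 ± 0.35 from 48.6, 57.2, 69 and 69 to 148, 106, 236 and 80.6, and lost its call without any 1 MII array or one-cell array 3 (changes from 0.75 to 1.07), after quantile normalization (0.52) and after centring (0.70). The other 2 changed by 0.72 ± 0.31 and 0.92 ± 0.37 and did not pass with all arrays. The first of them passed without one-cell array 1 (0.85) and the second, whose one-cell array 1 read 1344 against 372 to 567 on the others, without one-cell array 2 (1.13). Without array 1 the second was 0.52. The mean of the 4 probe sets rose by 1.48 ± 0.25 (limma, adjusted p = 0.000488). The probe sets of Psmf1 therefore gave one direction and very different sizes.

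Of the chaperones that assemble the core, Psmg4 rose by 1.17 ± 0.33 (adjusted p = 0.0119), from 49.8, 77.2, 63.9 and 81.9 to 248, 163, 177 and 99.1. The call was lost after quantile normalization (0.74), after centring (0.86) and with the covariate (0.97). Psmg1 (-0.65 ± 0.31), Psmg2 (0.15 ± 0.31) and Psmg3 (-0.38 ± 0.30) did not pass with all arrays, Psmg1 passed as lower without one-cell array 2 (-0.89), and Psmg3 did so after quantile normalization (-0.83). The small change of Psmg2 turned negative after quantile normalization (-0.31) and centring (-0.17).

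Across the 30 called probe sets, 17 kept their call under each of 19 other settings in which they were tested. They are those of Psma2, Psma6 (2), Psmb7, Psmc1, Psmc2 (2), Psmc5, Psmd6 (2), Psmd12 and Psmd14, 1 each of Psma5, Psmd11, Psme3 and Psme4, and the strongest of Psmf1. The Psmd11 probe set among them is the dim one, above the array median on 4 one-cell arrays and only 1 MII array. The brightest of Psmd11 did not pass (-0.06 ± 0.32). With arrays left out, the probe sets tested stayed those of the main filter. In the plot of called probe sets under 4 settings, none changes direction, and the changes of the smaller risers shrink under quantile normalization and centring.

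**Figure D4:**
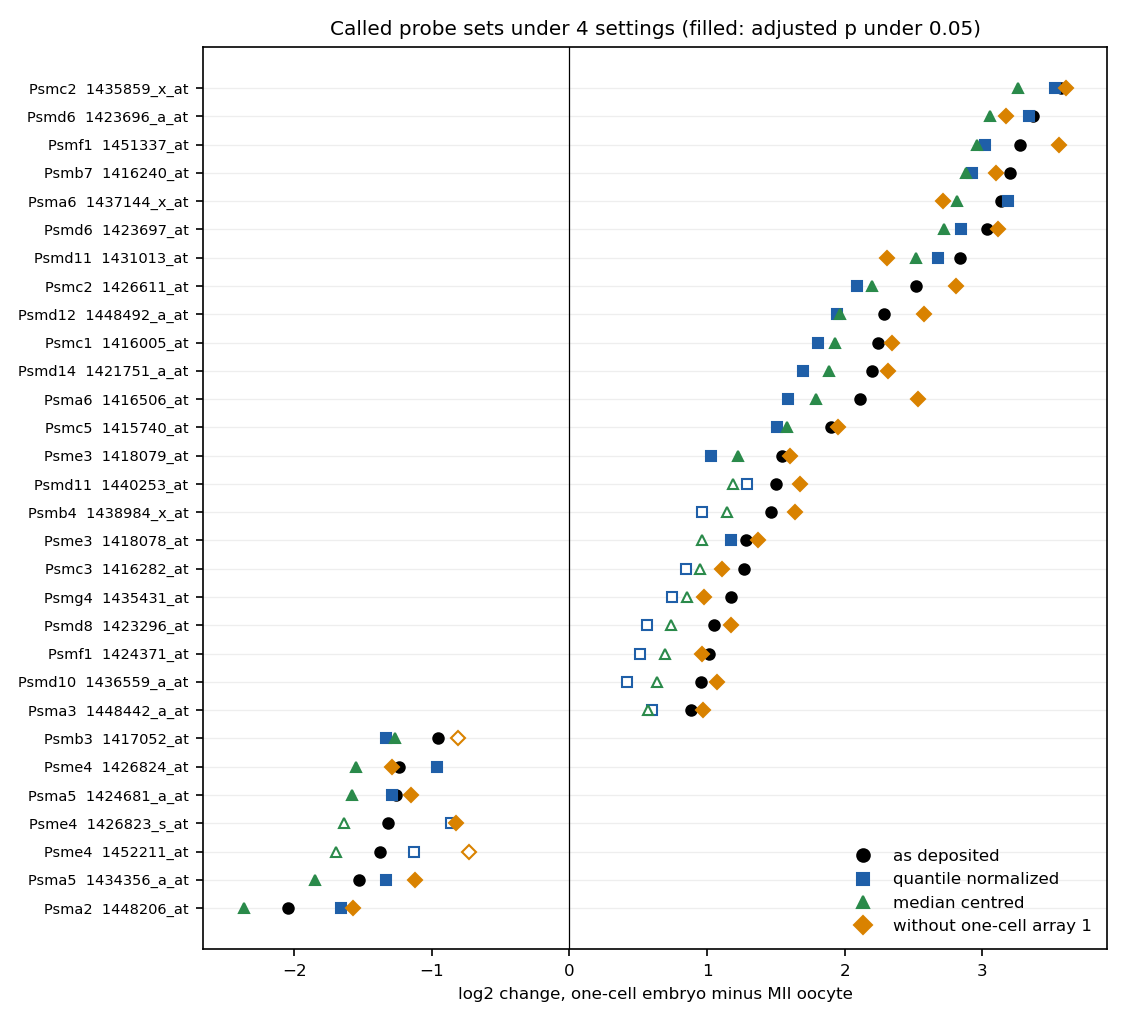
Log2 change (x axis) of the 30 called proteasome probe sets as deposited, after quantile normalization, after median centring and without one-cell array 1. Filled symbols passed the adjusted p threshold of 0.05 and open symbols did not; all symbols of a probe set lie on the same side of 0.

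The promoters of these genes were set side by side because the mRNAs of an obligate complex are made from separate genes. Alpha-amanitin inhibits transcription in the embryos, and the values above do not measure promoter activity. RefSeq (GRCm38.p6) windows of 300 bases, from 250 before to 50 after an annotated start, were held for 39 of the 47 genes. Of 7 motifs searched on both strands, CCGGAAG, the core of sites bound by ETS factors, was in 14 of 39 genes (35.9%) and in 2265 of 17492 protein-coding genes (12.95%). This motif was picked for display after the counts were seen. The others were CCAAT (35.9% against 42.3%), TGACNNNGC (15.4% against 14.8%), the extended antioxidant response element that overlaps it (0% against 2.47%), TATAAA (10.3% against 14.8%), TGACGCA (2.56% against 2.94%) and GCCATNTTG (2.56% against 3.32%). By the call of the gene, CCGGAAG was in 6 of 13 genes that rose, 1 of 3 that fell and 6 of 17 that did not pass. The 80-base stretches below are from 3 genes that rose and from Psme4, which fell, to show that the same letters stand before both; capitals mark CCGGAAG or its reverse complement CTTCCGG.
Psmc2, chr5:21785155-21785234, plus strand: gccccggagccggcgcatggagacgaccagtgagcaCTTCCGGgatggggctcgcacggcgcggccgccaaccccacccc
Psmd6, chr14:14120947-14121026, minus strand: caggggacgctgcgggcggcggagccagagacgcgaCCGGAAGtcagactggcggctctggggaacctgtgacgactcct
Psma6, chr12:55398657-55398736, plus strand: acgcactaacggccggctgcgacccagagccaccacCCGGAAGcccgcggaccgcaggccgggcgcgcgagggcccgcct
Psme4, chr11:30771686-30771765, plus strand: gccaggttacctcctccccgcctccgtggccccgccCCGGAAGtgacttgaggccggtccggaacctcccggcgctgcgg
The motif begins 84 bases before one of the 2 annotated starts of Psmc2, 45 before that of Psmd6, 132 before a start of Psma6 and 53 before that of Psme4. A match in these windows describes the sequence and is not evidence of binding.

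Genes that work with the proteasome but carry other names were counted from 3 lists. Of 14 proteasome-associated genes, all measured, 2 rose, 4 fell and 8 did not pass by their brightest probe set (median change -0.48), where 20.1% of all genes rose and 14.7% fell. Of 6 genes that regulate proteasome genes or extract their substrates, 1 rose and 0 fell. The single gene of the third list with a probe set of its own, the ubiquitin-activating enzyme Uba6, changed by -0.70 ± 0.31 and did not pass, although 2 of its 3 tested probe sets fell.

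Rad23b, which shuttles ubiquitinated proteins to the proteasome, rose on each of its 3 tested probe sets, the brightest from 473 ± 106 to 1696 ± 349 (SD, n = 4), a change of 1.82 ± 0.29. Nploc4, a cofactor of the segregase Vcp, rose on its 1 probe set from 43.9 ± 19.6 to 492 ± 68.7, a change of 3.28 ± 0.32. Its oocyte mean is near the MII array medians of 27 to 33.8, so the size of the fold is poorly set. Vcp itself did not pass (0.33 ± 0.30). Ubqln4, another shuttle, rose by 0.82 ± 0.28 on 1 of its 2 tested probe sets. That call was lost after quantile normalization and centring and without any 1 of the 4 MII arrays or one-cell array 2 or 4. In the other direction, Sem1, the smallest lid subunit, fell from 760 ± 266 to 239 ± 80.2, a change of -1.62 ± 0.33, on both of its probe sets. This is opposite to Psmd6, Psmd12 and Psmd14 of the same lid.

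Zfand2a, a stress-inducible partner of the regulatory particle, fell on 3 of its 4 tested probe sets. The brightest went from 3730.2 ± 720.4 to 831 ± 371, a change of -2.27 ± 0.36. The brightest probe set of the related Zfand5 fell, a change of -1.25 ± 0.32, and of its 6 tested probe sets 2 fell and 0 rose. Ubqln1 changed by -1.32 ± 0.37 and fell on both tested probe sets, the brightest of which did not pass with the hybridization controls as a covariate (-0.80), whereas Ubqln2 did not pass (-1.05 ± 0.42) and had another probe set that rose. The core maturation factor Pomp (0.33 ± 0.28), the deubiquitinases Usp14 (0.50 ± 0.28, with 2 of 4 probe sets that rose) and Uchl5 (0.01 ± 0.60), and Nfe2l1, the transcription factor that induces proteasome genes (-0.15 ± 0.26), did not pass.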

How the data were processed

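Polysomal RNA of 4 batches of MII oocytes and 4 of alpha-amanitin-treated one-cell embryos had been hybridized to 8 arrays, grouped here by the labels. The values are linear intensities as deposited, with no log or detection call. From the values, the mean of each array after trimming 2% at both ends was the same, and the medians differed. For software and genome build the sources used here state nothing. Probe sets were named from the platform annotation, which gives 1 symbol for 34945, several for 932 and none for 9160, and none was named from several symbols.

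The 64 control probe sets were left out. The intensities were taken as log2(intensity + 10), filtered and fitted with limma 3.58.1 in R 4.3.3 (trended variance, two-sided, Benjamini-Hochberg over all tested). The code was tested on simulated data. Alternatives covered scaling, offset, filter, variance trend, array weights, the hybridization controls as a covariate, a replicate block and arrays left out. Those for genes outside the symbol rule were added after seeing the data.

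The members, the gene lists and the settings were chosen with earlier results of these data known. Grouping by role (lid, base, rings) and the motifs were chosen after the values were seen. Named with all 8 values were, by rule, up to 4 called probe sets per class and direction with the smallest p, and Psme3, Psme4, Psmf1 and genes whose probe sets disagree. Others named with values were chosen after these were seen. Signals from the same number of array in each group were compared as a check of pairing: their deviations from the group means correlated at -0.16, -0.11, 0.14 and 0.04 across probe sets, which are not independent replicates, and the numbers were not used to pair arrays.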

Additional observations from a re-analysis of the deposited data

Results flagged for a closer look

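In groups of 4 arrays, an array was singled out when its gap to the nearest other array took up more of the group's range than Dixon's critical value allows. Of 128 groups of proteasome probe sets, 5 met it, and chance gives about 5% of groups.

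Psma4, an outer-ring core subunit, met it in both groups: MII array 2 was the lowest at 106 (0.921 of the range) and one-cell array 4 the lowest at 189 (0.866). The brightest probe set of Psma6 met it through one-cell array 1, the highest at 6083 (0.835). The dimmer probe set of Psmc2 met it through MII array 2, the lowest at 8.8 (0.842), and Psmd8 through the same array, the lowest at 84.9 (0.916).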

How the results depend on the processing

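Of the 30 called proteasome probe sets, 17 kept their call in each of 19 settings in which they were tested, and 13 lost it in at least 1. Rises counted over all classes numbered 15 after quantile normalization and 14 after median centring (23 as deposited). Over all probe sets tested, rises numbered 4511 as deposited, 3396 after quantile normalization, 2937 after centring and 3270 at adjusted p under 0.01. With the 75th percentile filter they were 3278 of 11803. Falls numbered 4 with no filter on dim probe sets, with the hybridization controls as a covariate and at adjusted p under 0.01, and 4 to 10 with 1 array left out (7 with all). Falls over all probe sets tested were 2982 in the main fit, 2574 of 45037 with no filter, 2131 with the covariate and 1771 at 0.01. In the main fit, 20 probe sets were tested for the core, 9 for the ATPases, 22 for the non-ATPase subunits and 13 for the activators and chaperones. In the core 3 rose after quantile normalization and centring. Of the ATPases 1 fell in these and with array weights. Of the non-ATPase subunits 5 rose after quantile normalization, centring and at 0.01, and 5 to 8 with 1 array left out, when 0 to 1 fell. Of the activators and chaperones 3 rose after quantile normalization, with the 75th percentile filter and at 0.01, and 2 after centring. Of these 1 fell after centring, with no filter, with the covariate, at 0.01 and without one-cell arrays 1 and 4, and 1 to 4 with 1 array left out.

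The median change, 0.61, was 0.19 after quantile normalization, 0.30 after centring, 0.44 with an offset of 50, 0.28 with no filter, 0.29 with the 75th percentile filter, 0.45 with the covariate and 0.48 to 0.64 with 1 array left out. With no filter it stood 0.09 above that of all probe sets, against 0.44 with the filter.

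The 12 probe sets that changed sign were uncalled with all arrays as deposited. After quantile normalization the values were -0.23 for Psmc6, 0.47 for the brightest probe set of Psmd11, 0.083 for Psmd2 and -0.31 for Psmg2. After centring they were -0.30 for Psma7, -0.22 for Psmc6, -0.028 for another Psmd11 probe set and -0.17 for Psmg2. Array weights gave 0.031 for the second Psma7 probe set, 0.33 for Psmd2 and 0.16 for Psmd7. The covariate gave 0.26 for that Psma7 probe set, 0.15, -0.13 and -0.066 for 3 of Psmd11, 0.79 for Psmd2, 0.76 for Psmd7 and 0.052 for Psmd9. Without one-cell arrays 1 and 4 the values were 0.26 for the same Psma7 probe set, 0.021 and -0.020 for 2 of Psmd11, 0.79 for Psmd2, 0.44 for Psmd7 and 0.067 for Psmd9.

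With 1 array left out, the changes ranged from -0.20 to 0.20 for Psma7 (first probe set), from -0.37 to 0.11 for Psma7 (second), from -0.71 to 0.13 for Psmb3, from -0.13 to 0.39 for Psmc6, from -0.18 to 0.15 for the brightest Psmd11 probe set, from -0.39 to 0.37 for Psmd2, from -0.63 to 0.27 for Psmd7 and from -0.13 to 0.039 for Psmd9. The causes were not tested.

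With the replicate number as a block, 20 proteasome probe sets rose and 7 fell. Of the 8 arrays, 2 correlated best with the array of their own number in the other group, so the numbers give no sign of pairing.

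Dim signals and 4 arrays a group limit these results. No detection calls were used, probe sets near the array median set folds poorly, and total mRNA was not analysed here.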

Other observations

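The probe sets that match the symbol rule by letters alone belong to genes of other functions. Psmc3ip, a cofactor of meiotic recombination also known as Hop2, has 2. The one tested read 0.9, 0.8, 12.4 and 7.5 in oocytes and 169, 139.6, 73.2 and 68.4 in embryos, a change of 2.97 ± 0.48 (limma, adjusted p = 0.000163). It exceeded the array median only on the one-cell arrays, so it passed the brightness filter through the group in which it is high. The other read 3.3, 10.7, 11.5 and 13.1 and 22.5, 67.5, 54.3 and 62.7 and was too dim to test, with no overlap of the groups. Psme3ip1, named for its interaction with Psme3, read 802, 428, 696 and 657 in oocytes and 1211, 953, 959.5 and 1006 in embryos. Its groups do not overlap, and its change of 0.70 ± 0.28 did not pass (adjusted p = 0.0677).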
